A study of Homo sapiens with 15 samples.

Results

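The 10 genes described here take iron into the cell (TFRC, STEAP3, SLC11A2, SLC39A14), store it (FTH1, FTL), release it from storage (NCOA4), export it (SLC40A1) or bind the mRNAs of such genes (ACO1, IREB2). They were picked by symbol for these roles. The rule uses no measured value, but it was set with earlier results of these data known. All 10 were found in both deposited tables, which list 16382 genes for MRC5 cells and 16076 for H196 cells, and all 10 passed the filter on low counts in every comparison.

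RNA sequencing was used to ask how lung fibroblasts and small cell lung cancer (SCLC) cells change each other. MRC5, a human lung fibroblast line, was grown alone (MRC5_Mo), with the neuroendocrine (NE) SCLC line H69 (MRC5_coH69) or with the non-NE SCLC line H196 (MRC5_coH196), and H196 was grown alone (H196_Mo) or with MRC5 (H196_Co). Every culture lasted 7 days, and the partner sat on a transwell membrane with pores of 0.4 µm, so that the partners shared medium without touching. No group carried a genetic change or received a drug. A single fibroblast line and a single non-NE line stand for each cell kind, MRC5 stocks were kept in MEM and H196 stocks in RPMI, and the medium of the co-cultures was not given in the sources used here. Each of the 5 groups has 3 libraries, 15 in all, described as parallel replicates. Whether they came from separate cultures is not given, so p-values measure only the spread between these libraries. Totals ran from 16073597 to 19170560 counts per library. The 10 fibroblast markers checked summed to between 13110 and 32087 counts per 1000000 (CPM) in MRC5 libraries and to between 68.6 and 83.6 CPM in H196 libraries, and the NE markers, of which 5 of 10 are listed for MRC5, to no more than 1.50 CPM in any MRC5 library. In H196 libraries the NE markers, of which 8 of 10 are listed, summed to between 65.4 and 70.0 CPM. The 6 epithelial markers summed to between 126 and 168 CPM in MRC5 and to between 213 and 274 CPM in H196 libraries.

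Cells take up most of their iron as transferrin, which binds the transferrin receptor TFRC at the cell surface and enters endosomes, where the ferrireductase STEAP3 reduces the iron and the transporters SLC11A2 (DMT1) and SLC39A14 (ZIP14) can carry it into the cytosol. Iron that is not used is held in ferritin, a shell of heavy (FTH1) and light (FTL) chains, until the receptor NCOA4 delivers ferritin to lysosomes for breakdown, and SLC40A1 (ferroportin) is the iron exporter. When cytosolic iron is low, the iron regulatory proteins ACO1 (IRP1) and IREB2 (IRP2) bind hairpins called iron-responsive elements (IREs): in the 3′ UTR of TFRC this protects the mRNA from decay, and in the 5′ UTR of the ferritin chains and SLC40A1 it blocks translation. The counts given below are mRNA only, so control of translation is not measured by them.

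The IREs are shown because they are what the mRNAs of uptake, storage and export share in sequence. They were searched for in the UTRs of the GENCODE v29 transcripts (GRCh38), on the transcript strand, as a C followed after 5 bases by CAGTG and 1 more base, where those 5 bases can pair with the 5 after the loop, G with T included. Each is printed 5′ to 3′ with 29 bases, and the capitals mark the bulged C and the 6 bases of the loop.
TFRC, 3′ UTR, chr3:196050979-196051007, minus strand: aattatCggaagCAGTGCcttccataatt
TFRC, 3′ UTR, chr3:196050575-196050603, minus strand: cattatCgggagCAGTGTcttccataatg
TFRC, 3′ UTR, chr3:196050510-196050538, minus strand: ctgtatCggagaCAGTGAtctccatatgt
TFRC, 3′ UTR, chr3:196050463-196050491, minus strand: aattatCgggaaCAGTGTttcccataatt
FTH1, 5′ UTR, chr11:61967574-61967602, minus strand: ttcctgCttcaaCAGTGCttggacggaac
FTL, 5′ UTR, chr19:48965335-48965363, plus strand: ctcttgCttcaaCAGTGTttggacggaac
SLC40A1, 5′ UTR, chr2:189580661-189580689, minus strand: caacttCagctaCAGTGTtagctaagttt

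TFRC held 4 such hairpins in 3 of its 4 coding transcripts, FTH1 held 1 in 7 of 8, FTL 1 in its only coding transcript and SLC40A1 1 in 1 of 5. Matches of this kind were found in a UTR of 168 of 19669 coding genes, or 0.854%. The other members held none in these letters, leaving aside SLC39A14, which is not reported here. In RefSeq promoter windows (GRCh38.p14, 250 bases before to 50 after a start) the letters ACGTG or GCGTG, the core bound by hypoxia-inducible factors, were searched on both strands, with a CACGTG counting on each. They occurred in 7 of 13 windows of the members other than FTH1 and SLC39A14, against 48.4% of all 35116 windows. The only windows of TFRC, FTL and ACO1 held them, as did some but not all windows of SLC11A2 and IREB2. The letters of the IRE loop with its bulged C, without the pairing, stood in 1 of these 13 windows, that of FTL, whose hairpin printed above begins inside it, and in 10.1% of all windows. A match of letters is a description and not a site of binding.

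Levels between genes can be compared on the FPKM scale, which divides by gene length. The ferritin chains stood far above the rest in every group (the plot of FPKM by library). In MRC5_Mo cells FTL had 5612 ± 152 FPKM (SD, n = 3) and FTH1 2581 ± 86 FPKM, followed in order by ACO1, NCOA4, TFRC, STEAP3, SLC39A14, SLC11A2, IREB2 and SLC40A1, the lowest with 3.11 ± 0.10 FPKM. No neighbours in that order overlapped between libraries in MRC5_Mo. In MRC5_coH196 cells TFRC moved from the 5th place to the 8th, where its libraries overlapped with those of SLC11A2. In H196_Mo cells ACO1 stood 8th, below TFRC, SLC39A14 and SLC11A2, and SLC40A1 was again the lowest with 0.75 ± 0.24 FPKM. FTH1 and FTL have many processed pseudogenes of near-identical sequence. Every deposited count of both chains was a whole number and the tables hold protein-coding mRNA only, so how reads shared with those copies were assigned cannot be read from the files, and the levels of both chains are uncertain to that extent.

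**Figure D1:**
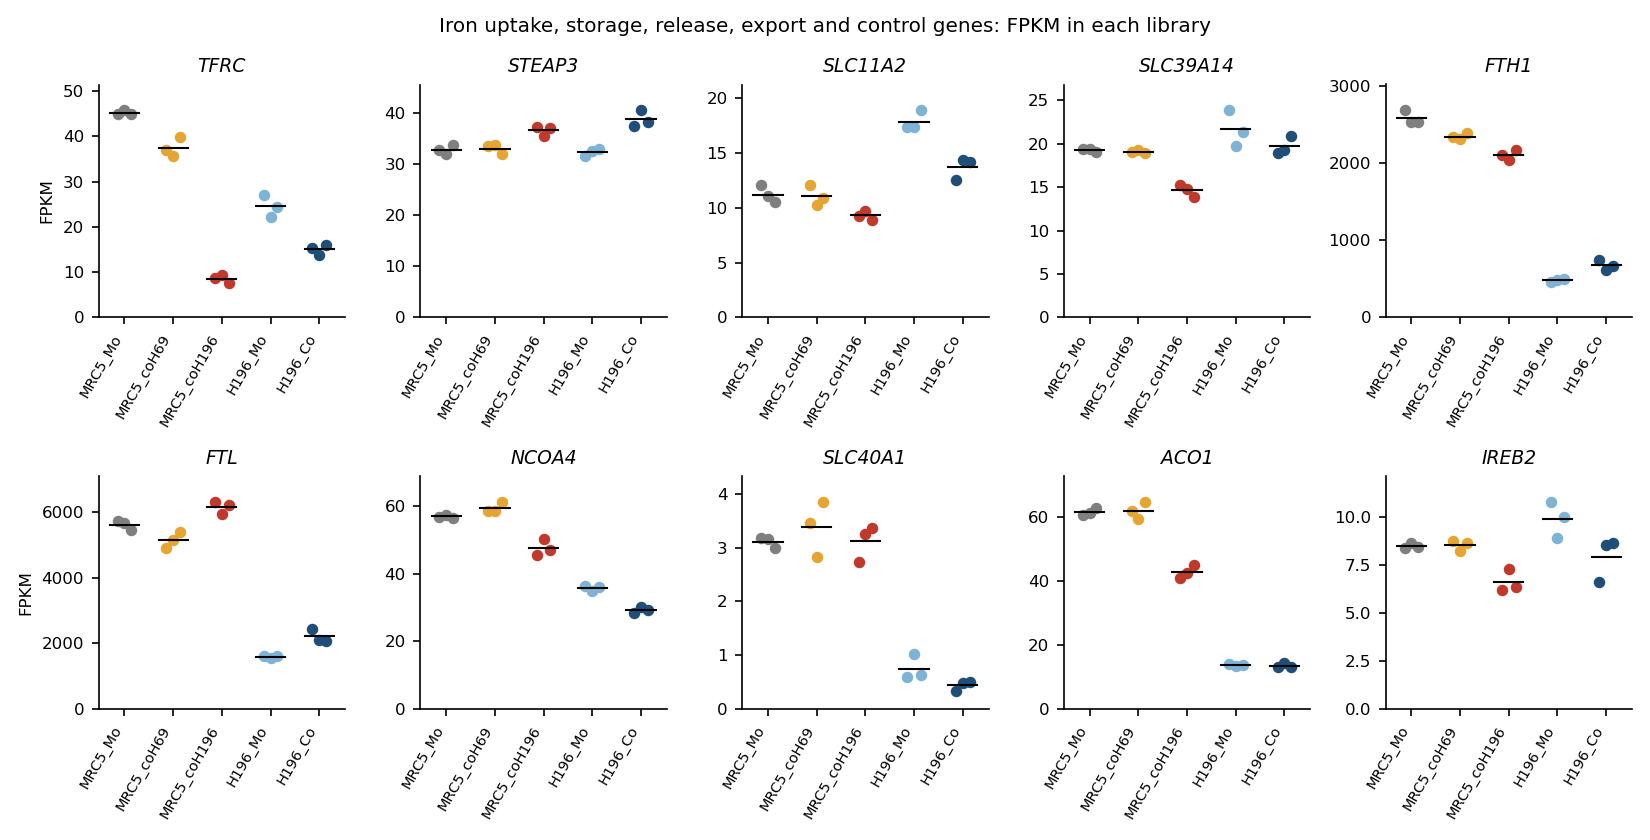
FPKM (vertical axes, from 0) of each of the 10 genes in the 5 groups on the horizontal axis, with 1 point per library and a line at the mean of 3. TFRC falls from 45.3 FPKM in MRC5_Mo to 8.56 FPKM in MRC5_coH196. FTH1, FTL, NCOA4, ACO1 and SLC40A1 are lower in both H196 groups than in all MRC5 groups.

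In MRC5 cells, culture with H196 was accompanied by a large fall of TFRC and small shifts of the other members. A gene was called when its Benjamini-Hochberg adjusted p from edgeR's quasi-likelihood test, over all genes tested, was under 0.05, and a DEG also had an absolute log2 fold change above 0.58. TFRC, ACO1, SLC39A14, IREB2 and FTH1 were lower in MRC5_coH196 than in MRC5_Mo cells, FTL and STEAP3 were higher, and NCOA4, SLC11A2 and SLC40A1 were not called. These 7 of 10 members stand against 74.3% of all genes called in this comparison (37.2% higher and 37.1% lower), so the number called is near the background. TFRC was the only DEG, against 31.9% of all genes, and the median log2 fold change of the members was -0.12 beside 0.00 for all genes tested. Scaling by library totals instead of TMM (a trimmed mean of gene ratios) moved the median of all genes to -0.18 in this comparison, and FPKM values carry the same shift, so a member's FPKM means sit lower in MRC5_coH196 than its fitted fold change.

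With H69 as the partner, TFRC and FTH1 were called, both lower, and 8 members were not. This is 2 of 10 members against 6.7% of all genes (3.78% higher and 2.93% lower). None of the 10 was a DEG by edgeR, against 0.554% of all genes. None was a DEG by DESeq2 either, where 35 of 12819 genes were higher DEGs and 9 lower. By edgeR, 3 members had an unadjusted p under 0.05. DESeq2 called 3 members, with FTL as the third, against 370 of the 12819 genes called higher and 268 lower. Set directly against each other, MRC5_coH196 had less TFRC, ACO1, SLC39A14, IREB2 and NCOA4 and more FTL and STEAP3 than MRC5_coH69 cells, 7 of 10 members against 72.3% of all genes (35.7% higher and 36.6% lower), while FTH1, SLC11A2 and SLC40A1 were not called. TFRC was again the only DEG, against 28.2% of all genes. The comparisons share libraries, so their values are given side by side and not as separate evidence.

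In H196 cells, culture with MRC5 was accompanied by lower TFRC and higher ferritin chains. FTH1, FTL and STEAP3 rose and TFRC, SLC11A2 and NCOA4 fell in H196_Co relative to H196_Mo cells, 6 of 10 members against 19.8% of all genes (12% higher and 7.78% lower). TFRC was the only DEG, against 3.86% of all genes, and FTH1 at a log2 fold change of 0.577 lay just under the limit. IREB2, SLC40A1, ACO1 and SLC39A14 were not called. The median log2 fold change of the members was -0.14, beside 0.00 for all genes tested.

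**Figure D2:**
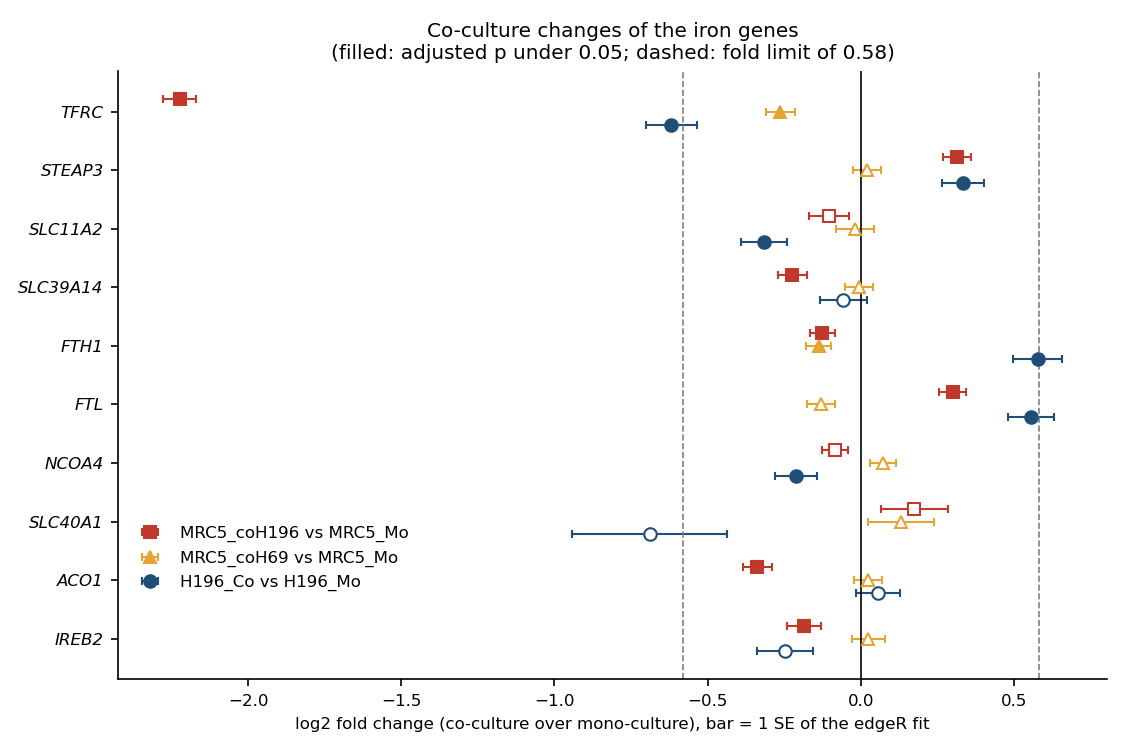
Log2 fold change of each gene (horizontal axis) in MRC5_coH196 and MRC5_coH69 over MRC5_Mo and in H196_Co over H196_Mo, with bars of 1 SE, filled symbols for an adjusted p under 0.05 and dashed lines at the limit of 0.58. TFRC in MRC5_coH196 lies at -2.22, and FTH1 is the gene whose symbols fall on both sides of 0 with an adjusted p under 0.05, at -0.13 and -0.14 in MRC5 and 0.58 in H196.

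TFRC, the transferrin receptor (chr3:196018476-196082123, GRCh38), had 45.0, 45.8 and 45.1 FPKM in the MRC5_Mo libraries, 37.1, 35.6 and 39.8 FPKM with H69, and 8.77, 9.31 and 7.61 FPKM with H196. In H196 cells it had 27.2, 22.1 and 24.4 FPKM alone and 15.3, 13.8 and 16.1 FPKM with MRC5. The groups do not overlap in either line, and MRC5_coH196 is the lowest of the 5 although MRC5_Mo is the highest. The fall in MRC5_coH196 was 4.67-fold (log2 fold change -2.22, SE 0.054, adjusted p = 1.6e-21 by edgeR), and only 0.257% of the 12819 genes tested had a lower fold change. The 4 hairpins printed above lie in the 3′ UTR of this mRNA, and their part in the fall was not tested. With H69 the log2 fold change was -0.26 (SE 0.047, adjusted p = 0.00082 by edgeR), and the direct difference between the 2 partners was -1.96 (SE 0.054, adjusted p = 2.6e-20). The H69 call was lost with limma on the FPKM scales, at adjusted p = 0.0695 and 0.129. In H196_Co cells TFRC was 1.54-fold lower than in H196_Mo (log2 fold change -0.62, SE 0.083, adjusted p = 2.4e-05 by edgeR), and 0.765% of genes had a lower fold change. Without H196_Mo replicate 1 or without H196_Co replicate 2 this value was -0.55 and still called, but short of the fold limit.

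Genes of other lists changed in MRC5 cells too, mostly downward like TFRC in the proliferation list but not in the marker lists. Of the 10 genes in the proliferation list, 9 were lower and 1 higher in MRC5_coH196, against 37.1% and 37.2% of all genes, and their summed level was 592 to 618 CPM, against 996 to 1151 CPM in MRC5_Mo and 906 to 921 CPM in MRC5_coH69, where 9 of 10 were lower, against 2.93% of all genes. In H196_Co none of the 10 was called by edgeR, against 19.8% of all genes, and 2 had an unadjusted p under 0.05. DESeq2 called 1 of the 10, against 1228 of 12806 genes called higher and 883 lower. The sums of the list were 2564 to 2605 CPM against 2710 to 2829 CPM in H196_Mo. The 10 fibroblast markers summed to 27139 to 30189 CPM in MRC5_Mo, 31077 to 32087 CPM with H69 and 13110 to 13852 CPM with H196. Of them, 6 were called higher and 3 lower with H196, against 37.2% and 37.1% of all genes. Of the 6 epithelial markers 4 were tested in MRC5 cells. With H196 as the partner 3 were higher, each a DEG, and 1 was lower (median log2 fold change 0.91), where 31.9% of all genes were DEGs. With H69 as the partner 2 were higher, against 3.78% of all genes. The epithelial markers summed to 126 to 133 CPM in MRC5_Mo, 151 to 168 CPM with H69 and 131 to 139 CPM with H196. The part of these lists in the TFRC result was not tested. In bulk libraries, fewer cells with an mRNA and less of it per cell cannot be told apart.

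Among the genes whose log2 CPM followed TFRC most closely over the 9 MRC5 libraries, out of 9227 genes of at least 10 CPM on average, were TAF9B (Pearson r = 0.999) and GLYR1 (r = 0.9989). These values are a description, since the 9 libraries are 3 conditions and most of the variation lies between them. TAF9B, a subunit of general transcription complexes, had 10.6 to 11.1 FPKM in MRC5_Mo, 9.02 to 9.61 FPKM with H69 and 2.51 to 3.08 FPKM with H196. In H196 cells, which had no part in choosing it, TAF9B stood at 28.3 to 32.2 FPKM alone and 19.7 to 24.3 FPKM with MRC5, a difference of -0.37 on the log2 scale (SE 0.079, adjusted p = 0.00267 by edgeR) beside the -0.62 of TFRC. GLYR1 had -0.18 there (SE 0.070, adjusted p = 0.0734), and was called under library totals, on both FPKM scales and with all 15 libraries in a single model (-0.26 to -0.17, adjusted p from 0.0145 to 0.0465).

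STEAP3, the endosomal ferrireductase (chr2:119222476-119265652), was the uptake gene that rose in both lines. It had 32.8, 32.0 and 33.8 FPKM in MRC5_Mo, 33.6, 33.7 and 32.0 FPKM with H69, and 37.2, 35.6 and 37.1 FPKM with H196. The MRC5_coH196 libraries lie above those of the other MRC5 groups, which overlap each other. The log2 fold change over MRC5_Mo was 0.31 (SE 0.045, adjusted p = 9.4e-07 by edgeR) with H196 and 0.02 (SE 0.046, adjusted p = 0.863) with H69. In H196 cells STEAP3 had 31.5, 32.6 and 33.1 FPKM alone and 37.4, 40.5 and 38.3 FPKM with MRC5, with no overlap. There it rose by a log2 fold change of 0.33 (SE 0.068, adjusted p = 0.00184 by edgeR), and it kept its call in both lines under all alternatives tried.

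SLC11A2, which carries ferrous iron out of endosomes (chr12:50952263-51028886), was called in H196 cells. It had 17.4, 17.4 and 18.9 FPKM in H196_Mo and 12.5, 14.4 and 14.2 FPKM in H196_Co, which do not overlap. The log2 fold change was -0.32 (SE 0.076, adjusted p = 0.00606 by edgeR), and without H196_Mo replicate 3 it was -0.26 with an adjusted p of 0.0585. In MRC5 cells it had 10.5 to 12.1 FPKM alone, 10.2 to 12.1 FPKM with H69 and 8.93 to 9.73 FPKM with H196. Those H196 libraries are lower on the FPKM scale, but the TMM-scaled difference was -0.10 (SE 0.064, adjusted p = 0.143), and it was called only under library totals or FPKM, at -0.24 to -0.28, where the median of all genes shifted too.

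SLC39A14, a zinc transporter that also carries iron, differed by partner in MRC5 cells. It had 19.0 to 19.4 FPKM in MRC5_Mo, 18.9 to 19.2 FPKM with H69 and 13.9 to 15.2 FPKM with H196. The log2 fold change with H196 was -0.22 (SE 0.046, adjusted p = 0.00013 by edgeR), and against MRC5_coH69 it was -0.22 (SE 0.047, adjusted p = 0.00019). In H196 cells the libraries overlapped, with 19.7 to 23.8 FPKM alone and 18.9 to 20.9 FPKM with MRC5 (log2 fold change -0.06, SE 0.076, adjusted p = 0.631), and this difference was 0.00 without H196_Mo replicate 1.

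FTH1, the ferritin heavy chain that oxidises iron (chr11:61964285-61967634), went different ways in the lines. It had 2681, 2529.8 and 2532 FPKM in MRC5_Mo, 2336, 2308 and 2382 FPKM with H69, and 2100.2, 2035 and 2171 FPKM with H196. The 3 groups do not overlap on this scale. The TMM-scaled log2 fold change over MRC5_Mo was -0.13 with H196 (SE 0.042, adjusted p = 0.00885 by edgeR) and -0.14 with H69 (SE 0.042, adjusted p = 0.0447). Both were small and depended on single libraries. The call with H196 was lost without MRC5_Mo replicate 1 (adjusted p = 0.0594) or without MRC5_coH196 replicate 2 (0.0661), and the call with H69 was lost on leaving out any 1 of its 6 libraries (0.0682 to 0.143). Between the partners the difference was 0.01 (SE 0.042, adjusted p = 0.807) under TMM and turned to -0.15 under library totals and -0.16 on the FPKM scale, with adjusted p from 0.00132 to 0.0135, where all genes shifted by -0.14 to -0.18.

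In H196 cells FTH1 had 460.3, 482 and 499 FPKM alone and 748, 620.1 and 665 FPKM with MRC5. Each H196_Co library exceeded each H196_Mo library. The rise was 1.49-fold (log2 fold change 0.58, SE 0.080, adjusted p = 3.5e-05 by edgeR), and 96% of the 12806 genes tested had a lower fold change. It kept its call under all alternatives, with values from 0.49 to 0.64 on both sides of the fold limit.

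FTL, the ferritin light chain (chr19:48965309-48966879), had 5726, 5670.1 and 5439 FPKM in MRC5_Mo, 4893, 5143 and 5401 FPKM with H69, and 6311, 5929 and 6205 FPKM with H196. The H196 partner gave the highest libraries and the H69 partner the lowest. FTL rose with H196 by a log2 fold change of 0.30 (SE 0.045, adjusted p = 1.6e-06 by edgeR). With H69 it had -0.13 (SE 0.045, adjusted p = 0.0832), and it was called under library totals, DESeq2, the 2 groups alone and without MRC5_coH69 replicate 3, at adjusted p from 0.0339 to 0.0492. The direct difference between the partners was 0.43 (SE 0.045, adjusted p = 5.3e-09). In H196 cells FTL had 1618, 1557 and 1614 FPKM alone and 2450.0, 2114 and 2082 FPKM with MRC5. It rose by 0.56 on the log2 scale (SE 0.076, adjusted p = 3.0e-05 by edgeR), by nearly the same factor as FTH1.

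The ratio of the chains within a library does not depend on how libraries are scaled. FTL exceeded FTH1 by 2.17-fold in FPKM in MRC5_Mo (log2 ratio 1.12 ± 0.038, SD, n = 3), 2.20-fold with H69 (1.13 ± 0.060) and 2.92-fold with H196 (1.55 ± 0.037). The MRC5_coH196 libraries lie apart from the others, and the log2 ratio was 0.43 higher than in MRC5_Mo. In H196 cells the ratio was 3.32-fold alone and 3.27-fold with MRC5, and the libraries overlap. The difference there, -0.02, was smaller than the SD of either group and turned to 0.01 without H196_Co replicate 3 and to 0.02 without H196_Mo replicate 1. Both chains together held 0.556% to 0.588% of all counts in MRC5_Mo, 0.493% to 0.533% in MRC5_coH69, 0.533% to 0.570% in MRC5_coH196, 0.136% to 0.141% in H196_Mo and 0.182% to 0.212% in H196_Co. The log2 ratio of TFRC to FTH1 was lower with the partner in both lines, with a difference of -2.11 in MRC5_coH196 relative to MRC5_Mo and of -1.195 in H196_Co relative to H196_Mo, given as a description with no test.

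**Figure D3:**
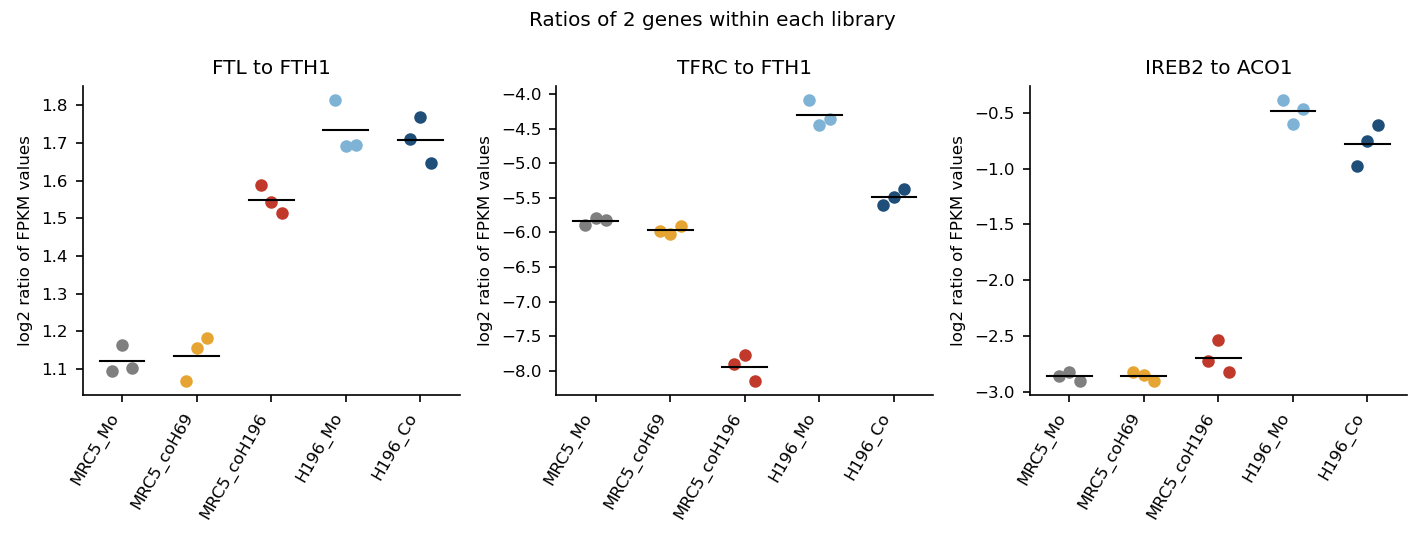
Log2 ratios of FPKM values within each library (vertical axes) for FTL to FTH1, TFRC to FTH1 and IREB2 to ACO1 in the 5 groups, with 1 point per library and a line at the mean of 3. FTL to FTH1 is 1.55 in MRC5_coH196 and 1.12 in MRC5_Mo, and TFRC to FTH1 drops to -7.94 in MRC5_coH196.

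NCOA4, the receptor that takes ferritin to lysosomes (chr10:46004763-46030623), had 56.9, 57.5 and 56.6 FPKM in MRC5_Mo, 58.6, 58.5 and 61.3 FPKM with H69 and 45.6, 50.4 and 47.1 FPKM with H196. The direct difference between partners was -0.16 (SE 0.042, adjusted p = 0.00182 by edgeR). Against MRC5_Mo the H196 value was -0.08 (SE 0.042, adjusted p = 0.0743), which was called under library totals and FPKM, at -0.25 to -0.26, and without MRC5_coH196 replicate 2, at -0.11. In H196 cells NCOA4 had 34.9 to 36.4 FPKM alone and 28.3 to 30.3 FPKM with MRC5, with no overlap. Its log2 fold change of -0.21 (SE 0.068, adjusted p = 0.0326 by edgeR) was no longer called on leaving out any library other than H196_Co replicate 2 (adjusted p from 0.0573 to 0.146).

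SLC40A1, the iron exporter ferroportin (chr2:189560590-189583758), was expressed at a low level in both lines. It had 3.18, 3.16 and 2.99 FPKM in MRC5_Mo, 3.46, 2.83 and 3.85 FPKM with H69 and 2.74, 3.25 and 3.37 FPKM with H196. These groups overlap, and neither partner gave a called difference. With H196 the log2 fold change was 0.17 (SE 0.11, adjusted p = 0.151 by edgeR), and it was 0.00 under library totals and called without MRC5_coH196 replicate 1 (0.26, adjusted p = 0.0489). The difference between the partners, 0.04 (SE 0.11), was from -0.11 to -0.08 under library totals and FPKM, and below 0 without MRC5_coH69 replicate 2 or MRC5_coH196 replicate 3. In H196 cells SLC40A1 had only 29, 54 and 34 counts alone and 18, 25 and 26 counts with MRC5. The groups do not overlap, but the log2 fold change of -0.69 (SE 0.25) was not called (adjusted p = 0.0599 by edgeR). It passed under library totals, a minimum of 10 counts, all 15 libraries in a single model or without H196_Mo replicate 1 (adjusted p from 0.0359 to 0.0483), and it was -0.40 without H196_Mo replicate 2, the library with 54 counts.

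Of the IRE-binding proteins, ACO1 fell in MRC5 cells with H196. ACO1 (chr9:32384643-32454769), which is a cytosolic aconitase when it holds an iron-sulfur cluster, had 60.8, 61.3 and 63.0 FPKM in MRC5_Mo, 62.1, 59.4 and 64.9 FPKM with H69 and 40.9, 42.6 and 45.2 FPKM with H196. Culture with H196 separated from the other groups by over 14 FPKM. The log2 fold change was -0.34 (SE 0.046, adjusted p = 4.2e-07 by edgeR), and with H69 it was 0.02 (SE 0.045, adjusted p = 0.84). In H196 cells ACO1 had 13.5 to 14.1 FPKM alone and 13.1 to 14.4 FPKM with MRC5, with a log2 fold change of 0.05 (SE 0.072, adjusted p = 0.63) that turned to -0.02 and -0.03 under library totals and FPKM.

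IREB2 (chr15:78437431-78501453), which is degraded when iron is sufficient, had 8.39, 8.67 and 8.44 FPKM in MRC5_Mo, 8.77, 8.22 and 8.64 FPKM with H69 and 6.20, 7.33 and 6.38 FPKM with H196. The last group lies below the other MRC5 groups. The log2 fold change with H196 was -0.18 (SE 0.056, adjusted p = 0.00473 by edgeR) and with H69 0.02 (SE 0.054, adjusted p = 0.859). In H196 cells it had 10.8, 8.92 and 10.02 FPKM alone and 6.64, 8.54 and 8.65 FPKM with MRC5, and -0.25 (SE 0.092, adjusted p = 0.0635) was not called. It was called under library totals, no filter, all 15 libraries in a single model or without H196_Mo replicate 2 or H196_Co replicate 2 (adjusted p from 0.0244 to 0.0471).

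The lines began from different levels. In H196_Mo relative to MRC5_Mo cells all 10 members were called, against 86.6% of all genes (44% higher and 42.6% lower), 9 lower and 1 higher, and 6 were DEGs, against 61.7% of all genes. FTH1 was 7.29-fold lower (log2 fold change -2.87, SE 0.068), ACO1 6.08-fold (-2.60, SE 0.057), SLC40A1 5.56-fold (-2.48, SE 0.16), FTL 4.78-fold (-2.26, SE 0.064), TFRC 2.49-fold (-1.31, SE 0.066) and NCOA4 2.16-fold (-1.11, SE 0.048). These are the ferritin chains, their release receptor, the exporter, TFRC and ACO1, and the adjusted p of these 6 was at most 3.3e-14 by edgeR. The 6 kept their calls under all alternatives, but the size of the difference depended on the processing. The smallest sizes were -2.44 for FTH1, -2.18 for ACO1, -2.05 for SLC40A1, -1.83 for FTL, -0.89 for TFRC and -0.69 for NCOA4. IREB2 (-0.22) and SLC39A14 (-0.27) had fitted values below 0 that turned to 0.20 and 0.15 under library totals, where the median of all genes shifted to 0.45, and their FPKM means were higher in H196_Mo. STEAP3 (-0.49, and -0.06 under library totals) was no longer called there, and SLC11A2 (0.23) was higher. The IREB2 call was also lost without H196_Mo replicate 2 (-0.16, adjusted p = 0.077). As a ratio within a library, IREB2 had 0.138 of the FPKM of ACO1 in MRC5_Mo and 0.717 in H196_Mo. Cell line, culture medium and sample handling cannot be told apart in this comparison.

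Whether a member responded differently in the lines was tested in a single model of all 15 libraries, as the change in H196_Co over H196_Mo minus the change in MRC5_coH196 over MRC5_Mo. The response differed for 5 of 10 members, against 51.2% of all genes (27.1% higher and 24.1% lower), so this count is also near the background, and 3 of them were DEGs, against 24.7%. TFRC fell in both lines and fell less in H196, with a difference of 1.63 (SE 0.098, adjusted p = 2.2e-13 by edgeR). FTH1 differed by 0.73 (SE 0.090, adjusted p = 1.3e-07), ACO1 by 0.42 (SE 0.079, adjusted p = 6.8e-05), FTL by 0.28 (SE 0.086, adjusted p = 0.00727) and SLC40A1 by -0.84 (SE 0.27, adjusted p = 0.0122). FTL rose in both lines and more in H196, and the difference was not called without MRC5_coH196 replicate 2 (0.19, adjusted p = 0.0817). The SLC40A1 difference was not called without H196_Mo replicate 2 (-0.54, adjusted p = 0.113) or without H196_Co replicate 1 (-0.69, adjusted p = 0.0559). STEAP3 (0.05, SE 0.074), IREB2 (-0.04, SE 0.11), NCOA4 (-0.10, SE 0.068), SLC11A2 (-0.18, SE 0.099) and SLC39A14 (0.19, SE 0.083) were not called, which does not show that they moved alike. SLC39A14 was called under library totals (0.26) and without H196_Mo replicate 1 (0.25), H196_Co replicate 1 (0.21) or H196_Co replicate 2 (0.21), at adjusted p from 0.0106 to 0.0400. NCOA4 was called without MRC5_coH196 replicate 1 (-0.18, adjusted p = 0.0409) and SLC11A2 without MRC5_coH196 replicate 3 (-0.28, adjusted p = 0.0333). The value of STEAP3 was -0.04 without MRC5_coH196 replicate 2, and that of IREB2 was above 0 under library totals and without H196_Mo replicate 1 or H196_Co replicate 1.

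The wider iron and heme pathways were followed through 70 further genes in 5 lists. In MRC5_coH196 cells 59 were tested, of which 18 were higher than in MRC5_Mo, 29 lower and 12 not called, with a median log2 fold change of -0.16. Of all genes tested, 37.2% were higher and 37.1% lower (74.3% called) with a median of 0.00, so the share of these lists that was called is near the background, and the counts that follow are to be read against the same shares. The list of iron-sulfur cluster assembly and mitochondrial iron had 16 of 24 genes lower and 3 higher (median -0.27), and the heme list 9 of 19 lower and 5 higher (median -0.04). The other iron entry genes had 5 of 8 higher and 2 lower (median 0.51), the export and control genes 3 of 4 higher (median 0.46), and the storage genes and iron chaperones 2 of 4 in each direction. With H69 1 of the 59 was higher and 1 lower, against 3.78% and 2.93% of all genes. In H196_Co cells 10 of 58 were higher and 3 lower (median 0.02), against 12% and 7.78% of all genes and so near the background, with 1 of 24 of the iron-sulfur list in each direction, 1 of 8 of the entry list in each direction, 3 of 4 export and control genes and 1 of 4 storage genes higher, and 4 of 18 heme genes higher and 1 lower.

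By size, the leading DEGs of these lists in MRC5_coH196 were TFR2, HMOX1, ABCG2 and SLC39A8. TFR2, the second transferrin receptor, had 1, 4 and 4 counts in MRC5_Mo, 2 to 6 with H69 and 25 to 43 with H196 (log2 fold change 3.52, SE 0.41, adjusted p = 3.0e-08 by edgeR), a fold that depends on the prior count at so few reads. It opposed TFRC in direction at a level of 0.773 FPKM beside the 8.56 FPKM of TFRC. HMOX1, which frees iron from heme, went opposite ways in the lines: it fell from 27.8 to 30.5 FPKM in MRC5_Mo to 6.10 to 8.55 FPKM with H196 (log2 fold change -1.84), rose from 22.5 to 24.3 FPKM in H196_Mo to 54.4 to 60.5 FPKM in H196_Co (1.40), and the responses differed by 3.26 (SE 0.12, adjusted p = 1.1e-17). ABCG2, an exporter of porphyrins among other substrates, had 47 to 51 counts in MRC5_Mo and 7 to 18 with H196 (log2 fold change -1.80). SLC39A8, a close relative of SLC39A14, had 4 to 9 counts in MRC5_Mo and 12 to 26 with H196 (1.65). SLC39A8 had 15.9 to 18.3 FPKM in H196_Mo cells, and the part of H196 RNA in its value in MRC5_coH196 was not tested. The same 4 genes led against MRC5_coH69, with log2 fold changes of 3.23, -1.49, -1.77 and 1.71.

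In H196_Co cells HMOX1, EPAS1 and BMP6 were the DEGs of these lists, all higher. BMP6, an inducer of hepcidin in liver, had 6.33 to 6.70 FPKM alone and 10.1 to 10.5 FPKM with MRC5 (log2 fold change 0.74, SE 0.079, adjusted p = 1.3e-06 by edgeR). EPAS1, the hypoxia-inducible factor whose mRNA carries an IRE, had 16 to 18 counts alone and 25 to 42 with MRC5 (0.97, SE 0.26, adjusted p = 0.0134), and was not called by DESeq2 (0.0548), by limma on log2(FPKM + 1) (0.0693) or without H196_Co replicate 2 (0.0888). EPAS1 stood at 77.5 to 88.9 FPKM in MRC5_Mo, and the summed fibroblast markers, 9 of 10 listed, were 68.6 to 73.7 CPM in H196_Mo and 77.4 to 83.6 CPM in H196_Co, with COL1A2 at 0 in every H196_Mo library but not in H196_Co. The part of fibroblast RNA in the EPAS1 value was not tested. Between the lines the largest differences of these lists were those of HEPH, EPAS1, BMP6 and SLC39A8. HEPH, a ferroxidase that works with ferroportin, had 465 to 503 counts in MRC5_Mo and 0 in all 3 H196_Mo libraries, which allows up to 0.187 CPM.

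**Figure D4:**
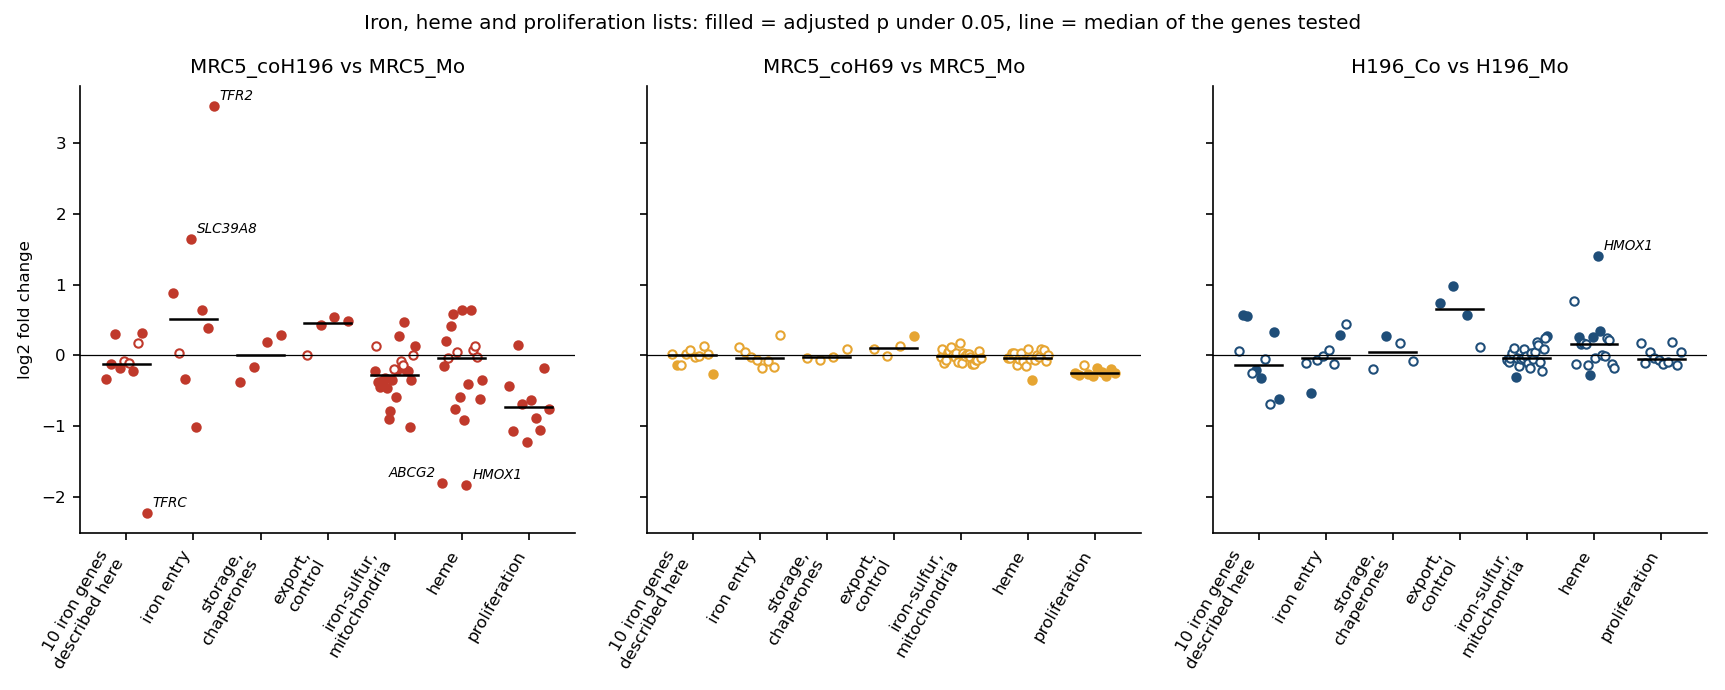
Log2 fold change (vertical axis) of every tested gene in the 10 genes described here, the 5 further iron and heme lists and the proliferation list, in 3 panels for MRC5_coH196 and MRC5_coH69 over MRC5_Mo and H196_Co over H196_Mo, with filled points for an adjusted p under 0.05 and a line at each list's median. The iron-sulfur list lies mostly below 0 in MRC5_coH196, where 16 of 24 genes were lower, and around 0 in the other panels.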

How the data were processed

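Reads had been cleaned by the authors with SOAPnuke and mapped with HISAT (genome, GRCh38.p13) and Bowtie2 (genes). The submitters' processing notes name HISAT2 2.1.0, Bowtie2 2.3.4.3 and RSEM 1.3.1. Expected counts were deposited without normalization, and 92.1% (H196) and 93.7% (MRC5) were whole. The deposited FPKM values are the authors' own scaling of these for gene length and depth, to 2 decimals. TPM and normalized columns (12 for H196, 18 for MRC5), averages, the second copy of each table and the authors' DESeq2 fold changes and p-values were not used.

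Counts were rounded and fitted with edgeR 4.0.16 (R 4.3.3; TMM, factors 0.814 to 1.26; filterByExpr; quasi-likelihood tests, two-sided, Benjamini-Hochberg over all genes tested) in 9 MRC5 libraries, 6 H196 libraries, or all 15 over the 15320 genes in both tables. DESeq2 1.42.0, limma 3.58.1 on log2(FPKM + 1) and log2(FPKM + 0.1), other scalings, filters, a replicate block and leaving out each library were alternatives. Log2 CPM used a prior count of 2. CPM of marker sums use library totals. The tests were tried on simulated counts first. An exact permutation test of 3 against 3 cannot go below p = 0.1, so none was used. Genes named from further lists were the up to 4 DEGs of largest fold change per comparison, and the likeness rule took the 3 genes of highest r to the member with the largest change, of which 1 is not reported here. The members and lists were chosen with earlier results of these data known.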

Additional observations from a re-analysis of the deposited data

Results flagged for a closer look

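For 5 of the 10 genes the change in H196_Co over H196_Mo differed from that in MRC5_coH196 over MRC5_Mo by the test of the difference itself (edgeR quasi-likelihood test, 3 libraries per group, adjusted over 13585 genes, of which 51.2% were called). TFRC differed by 1.63 on the log2 scale (adjusted p = 2.2e-13), since it fell by 2.22 in MRC5 and by 0.62 in H196. FTH1 differed by 0.73 (adjusted p = 1.3e-07), with -0.13 in MRC5 and 0.58 in H196. ACO1 differed by 0.42 (adjusted p = 6.8e-05), with -0.34 in MRC5 and 0.05, not called, in H196. FTL differed by 0.28 (adjusted p = 0.00727), with 0.30 in MRC5 and 0.56 in H196, and by 0.19 (adjusted p = 0.0817) without MRC5_coH196 replicate 2. SLC40A1 differed by -0.84 (adjusted p = 0.0122), with neither 0.17 in MRC5 nor -0.69 in H196 called on its own, and this was not called without H196_Mo replicate 2 (-0.54, adjusted p = 0.113) or without H196_Co replicate 1 (-0.69, adjusted p = 0.0559). Groups of 3 libraries were not searched for single outlying libraries.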

How the results depend on the processing

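Of 900 values of single members under alternatives, 818 kept their direction and side of the threshold, 27 changed sign, 30 gained and 25 lost a call. TFRC kept its call in MRC5_coH196 (-2.40 to -2.16) and in H196_Co (-0.70 to -0.55). The changes of sign concern values near 0 or scalings that shift all genes, and the cause was not tested. Under library totals these were ACO1 in H196_Co over H196_Mo (-0.020), SLC40A1 in MRC5_coH196 over MRC5_Mo (-0.00014), FTH1 (-0.15) and SLC40A1 (-0.11) in MRC5_coH196 over MRC5_coH69, IREB2 (0.20) and SLC39A14 (0.15) in H196_Mo over MRC5_Mo, and the response difference of IREB2 (0.036). On log2(FPKM + 1) they were ACO1 in H196_Co (-0.025) and, between partners, FTH1 (-0.16) and SLC40A1 (-0.085), and on log2(FPKM + 0.1) these again (-0.027, -0.16 and -0.11) and SLC40A1 in MRC5_coH196 over MRC5_Mo (-0.00040). With each library left out in turn, other values near 0 crossed it. Between partners, FTH1 ranged from -0.012 to 0.054 and SLC40A1 from -0.065 to 0.14. In MRC5_coH69 over MRC5_Mo, ACO1 ranged from -0.0093 to 0.053, IREB2 from -0.00035 to 0.048, SLC11A2 from -0.079 to 0.032, SLC39A14 from -0.018 to 0.0035 and STEAP3 from -0.00084 to 0.047. SLC39A14 in H196_Co ranged from -0.11 to 0.00054. The response difference of IREB2 ranged from -0.14 to 0.076 and that of STEAP3 from -0.037 to 0.065. The log2 ratio of FTL to FTH1 in H196_Co minus H196_Mo ranged from -0.054 to 0.016.

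The count of DEGs among the members in H196_Co over H196_Mo was 1, and became 2 under library totals, 2 with at least 10 counts in every library, 3 with all 15 libraries in a single model, and 1 to 2 with a library left out (2 without H196_Mo replicate 2 or 3 or H196_Co replicate 2 or 3). Of all genes, 3.86% were DEGs in the main fit. Under library totals 320 of 12806 genes were higher DEGs and 141 lower. With at least 10 counts these were 380 and 75 of 12450 genes. In the single model they were 474 and 77 of 13585. With a library left out they ranged from 350 to 431 and from 68 to 98. Without a fold limit the count of members became 6 in H196_Co over H196_Mo, against 19.8% of all genes called. It became 7 in MRC5_coH196 over MRC5_Mo and 7 over MRC5_coH69 (from 1 each), against 74.3% and 72.3%. In MRC5_coH69 over MRC5_Mo it became 2 (from 0), against 6.7%. For the response difference it became 5 (from 3), against 51.2%. In H196_Mo over MRC5_Mo it became 10 (from 6), against 86.6%. Deviations of same-numbered libraries from their group means had correlations of -0.116 to 0.0810 in MRC5 and -0.151 to 0.0334 in H196. With 3 libraries per group, these values cannot show whether same-numbered libraries were handled together. With the replicate block NCOA4 in H196_Co (adjusted p = 0.0661) and FTH1 in MRC5_coH69 (adjusted p = 0.0541) were not called, and the counts of DEGs among the members did not change. Depth limits SLC40A1 in H196 cells, with 18 to 54 counts per library, and TFR2, SLC39A8 and ABCG2.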
